A study of Gallus gallus with 3 samples.

Results

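The miR-15 and miR-16 family on these arrays was gga-miR-15a, gga-miR-15b, gga-miR-15c, gga-miR-16 and gga-miR-16c, where the prefix marks chicken. The members were taken by name from a list given for this work, and all 5 were present among the 542 miRNAs of the array. Two-colour miRNA arrays were used to compare leg muscle of 14-day-old embryos of dwarf recessive White Rock chickens with that of normal recessive White Rock chickens. A deletion marks the dwarf birds, at the end of the coding region of the growth hormone receptor gene (GHR) and on into its 3' UTR, and normal birds lack it. All embryos were females per the study's methods, and both strains had been kept over several generations, so the GHR deletion and other differences between the strains cannot be told apart. Each of 3 arrays held 1 dwarf pool and 1 normal pool, and a pool held RNA of 3 embryos. On arrays 1 and 3 the dwarf RNA was labelled with Cy5 and the normal RNA with Cy3, and on array 2 the dyes were exchanged. Every ratio has 1 value per array (n = 3), and so few arrays limit its precision.

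A miRNA is a small RNA that guides silencing proteins to messenger RNAs, mainly through its seed, the bases 2 to 8 from its 5' end. Members of the miR-15 and miR-16 family are known in human cells to hold back cell cycle genes such as cyclin D1 and the survival gene BCL2, and relatives with the same seed support withdrawal from the cell cycle in mouse muscle and heart. The genes lie in pairs, a miR-15 next to a miR-16, and each pair is made from a shared transcript in mammals. The study found miR-15c lower in older dwarf birds than in dwarf embryos, miR-16 likewise in normal birds, and miR-16c in both strains. It tied these miRNAs to GHR by target prediction, set against genes that differed between the strains in the older birds. It then reported that their predicted sites lay at a distance from the GHR region matched by let-7b, and took only let-7b further.

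The target sequences printed on the array are shown for the 5 members because their likeness sets what each probe can tell apart. Capitals mark bases 2 to 8, the seed.
miR-15a: uAGCAGCAcauaaugguuugu
miR-15b: uAGCAGCAcaucaugguuugca
miR-15c: uAGCAGCAcaucaugguuugua
miR-16: uAGCAGCAcguaaauauuggug
miR-16c: uAGCAGCAcguaaauacuggag
All 5 began with the same 9 bases, and no other of the 542 array sequences had this seed at bases 2 to 8. The letters AGCAGCA stood elsewhere in 3 others, at base 1 in miR-103 and miR-107 and at base 3 in miR-1551.

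The members fell into a miR-15 branch and a miR-16 branch by sequence. Counting from the 5' end, miR-15b and miR-15c differed at 1 of 22 bases, C21U, and miR-16 and miR-16c differed at 2 of 22, U17C and U21A. Compared over its 21 bases, miR-15a differed from miR-15c at 1 position, A12C, and from miR-15b at 2, A12C and U21C. Between the branches, pairs of members differed at 5 to 9 positions. Compared base by base from the 5' end without gaps, no other sequence on the array came nearer than 9 differences to any member. Among the array's sequences, another member was thus the nearest to each. RNAs without a probe on the array and matches shifted along the sequence were not compared. Signal shared between the members' probes was not measured.

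Gene neighbours were looked up in RefSeq (assembly GRCg7b), without coordinates since the array files name no build. Each miR-15 gene had a miR-16 gene as its nearest miRNA gene. MIR15A lay beside MIR16-1, MIR15B beside MIR16-2 within the gene SMC4, and MIR15C beside MIR16C. SMC4 encodes a subunit of condensin, which compacts chromosomes. The array had 1 probe for miR-16, so RNA from MIR16-1 and MIR16-2 was read together.

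Empty spots read 105 to 170.2 in Cy3 and 36.1 to 57.8 in Cy5, as medians per array, and these medians were subtracted to give signals. The limit for detection was a signal over 32, and 101 to 124 miRNAs passed it in dwarf pools and 90 to 142 in normal pools. Of the muscle miRNAs, miR-206 ranked 4 and miR-1a ranked 6 of 542 by mean signal, miR-133a, miR-133b, miR-133c and miR-499 ranked 31 to 55, and miR-1b was at or under the limit in all pools. The sums below, like the counts of detected miRNAs, were taken before any correction for dye. Dwarf pools carried Cy5, in which most tested miRNAs read dimmer, on arrays 1 and 3, so these sums do not compare the strains. The summed muscle signals were 14199 to 46692 in dwarf pools and 30235 to 69817 in normal pools. A list of 6 epithelial miRNAs had summed signals of 28208 to 50581 in dwarf pools and 274 to 19562 in normal pools. The brightest of these, miR-203, had a mean signal over all pools of 20628, against 60.6 to 1613 for the others. For red blood cell miRNAs the sums were 1298 to 6401 in dwarf pools and 604 to 4824 in normal pools. In the same order they were 497 to 897 and 66.9 to 2083 for white blood cell miRNAs. For cartilage miRNAs they were 106 to 1981 and 156 to 9665. After normalisation, 37% of the 127 tested miRNAs had a mean log2 ratio of dwarf over normal above 0. Among the tested miRNAs of the lists, it was so for 1 of 6 for muscle and 0 of 1 for cartilage. The tested cartilage miRNA, miR-140*, was at -3.48, 2.13 and -2.05 on arrays 1, 2 and 3. The list did not name miR-455-3p and miR-455-5p, which had mean ratios of -0.91 and -0.57 and were outside the cartilage sums. A mean ratio above 0 was found for 6 of 6 epithelial, 2 of 2 red blood cell and 3 of 3 white blood cell miRNAs. Of the white blood cell miRNAs, miR-146a was at 1.23, while miR-146b at 0.04 and miR-223 at 0.009 were near 0. The part of such cells in the values of the miR-15 and miR-16 members was not tested, and fewer cells of a type and less RNA per cell cannot be told apart in these pools.

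The miR-16 branch was bright in every pool. On arrays 1, 2 and 3, miR-16 had signals of 3211, 7477 and 7861 in dwarf pools, against 5228, 3805 and 14530 in normal pools. The ranges overlapped, and on each array the pool in Cy3 was the brighter one. miR-16c gave nearly the same picture, with 3229.6, 7655 and 6397 in dwarf pools and 5088, 3826 and 14278 in normal pools. By mean signal over the 6 pools, miR-16 ranked 18 and miR-16c ranked 20 among the 542 miRNAs.

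The miR-15 branch was dimmer. On arrays 1, 2 and 3, miR-15c had signals of 738, 1106 and 1227 in dwarf pools and 1645, 408 and 3902 in normal pools. miR-15b had 443, 1162 and 902 in dwarf pools and 1098, 388 and 3178 in normal pools. In both, the brightest and the dimmest pool were normal pools, in Cy3 on array 3 and in Cy5 on array 2. miR-15a was the dimmest member, with 31.5, 264 and 221 in dwarf pools and 97.8, 42.0 and 1068 in normal pools. Its signal in the dwarf pool of array 1 was not over 32, so 29 of the 30 member and pool combinations were detected. Ranks by mean signal were 50 for miR-15c, 60 for miR-15b and 84 for miR-15a. In all, 4 of the 5 members were over 32 in every pool, a state reached by 15.7% of the 542 miRNAs.

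The order of signals within the family was read in each pool. Probes bind their targets with unequal strength, so this is an order of signals and not of molecules. miR-16c was above miR-15c in 6 of 6 pools, by a median factor of 4.78 and a range of 3.09 to 9.37. miR-15b was above miR-15a in 6 of 6 pools, by a median factor of 6.38. The neighbours miR-16 and miR-16c did not differ in order, with miR-16 above in 3 of 6 pools and a median factor of 1.01. miR-15c was above miR-15b in 5 of 6 pools, by a median factor of 1.29. The sum of miR-16 and miR-16c signals made up 84.2%, 85.7% and 85.8% of the family's total signal in dwarf pools, and 78.4%, 90.1% and 78.0% in normal pools, given in the order of the arrays. The share lay within a narrow range in dwarf pools and both above and below that range in normal pools. These shares were taken before any correction for dye, and on each array the pool in Cy5 had the higher share. In both strains the pool of array 2 carried the other dye. The part of the dye in these shares was not tested.

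**Figure D1:**
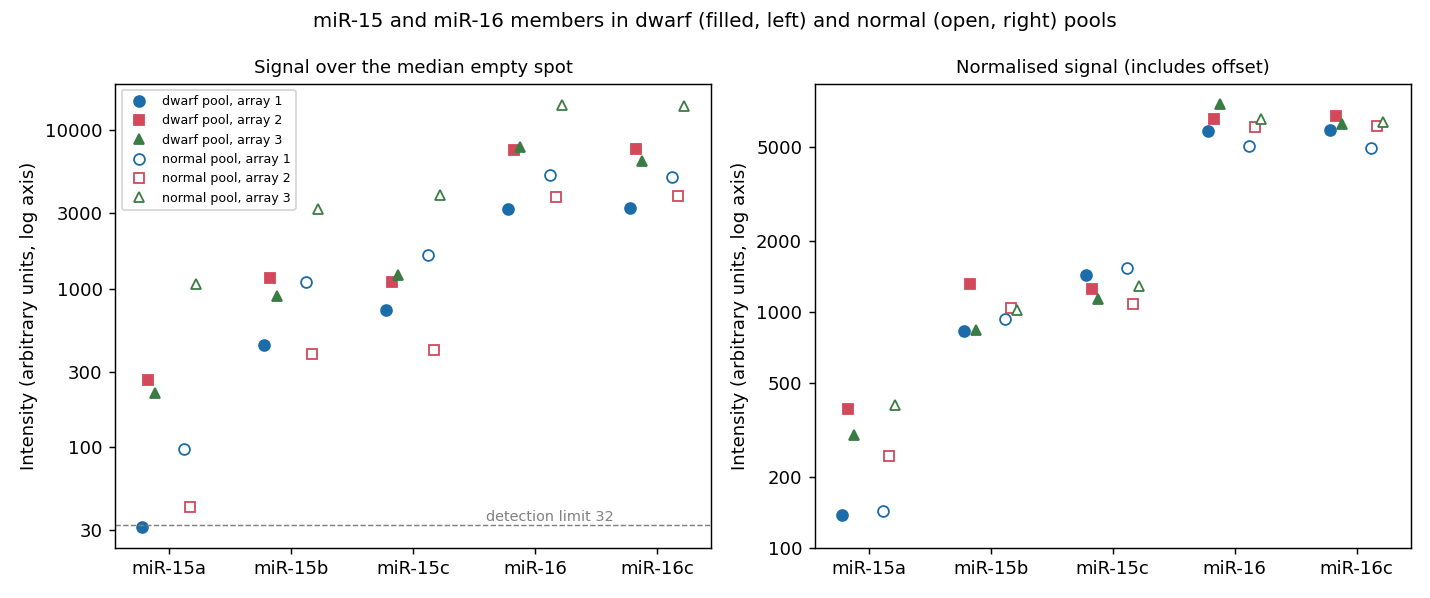
Signals of the 5 members in each pool, with dwarf pools as filled symbols on the left of each member and normal pools as open symbols on the right; the left panel gives signals over the median empty spot and the right panel normalised signals, both on a log axis in arbitrary units. The normal pools of array 3 are the brightest before normalisation, and miR-15a of the dwarf pool of array 1 lies at 31.5, just under the limit of 32.

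Before any correction for dye, the Cy3 pool had the higher signal for all 5 members on all 3 arrays, as it had for 88.2% of the 127 tested miRNAs. The Cy3 signal over the Cy5 signal was 1.63, 1.97 and 1.85 for miR-16 on arrays 1, 2 and 3, and 1.58, 2.00 and 2.23 for miR-16c. It was 2.48, 3.00 and 3.52 for miR-15b and 2.23, 2.71 and 3.18 for miR-15c. For the dim miR-15a it was 3.11, 6.30 and 4.83. The median over the 85 miRNAs detected in all pools was 2.28, 2.11 and 3.02 on the same arrays. The miR-16 branch thus lay below that median on every array, while miR-15a and miR-15b lay above it on every array. Because dwarf and normal pools exchange dyes on array 2 only, strain can be read only after this imbalance is removed.

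After loess normalisation, which removes the intensity-dependent part of the dye imbalance within an array, none of the 5 members passed an adjusted p of 0.05 for dwarf over normal. The fit was made with limma on the 127 miRNAs whose mean signal exceeded 32, of which 0 passed (0%), and all 5 members were among these. At an unadjusted p under 0.05 the count was 0 of 5 members, where 11% of the tested miRNAs reached it. All ratios below are log2 values of dwarf over normal, and those of dim miRNAs are understated because an offset of 50 was added to the intensities. Over all tested miRNAs the median ratio was -0.05.

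With loess fitted on all miRNAs, miR-16 had the smallest spread of the ratio between arrays among the members. Its normalised signal averaged 6637 ± 885 in dwarf pools and 5886 ± 755 in normal pools (SD, n = 3 each), and the ranges overlapped. The log2 ratio was 0.20, 0.11 and 0.21 on arrays 1, 2 and 3, above 0 on each, as was so for 13.4% of the tested miRNAs. The mean was 0.17 (SE 0.12, limma adjusted p 0.669), and the 95% interval of the fold, 0.894 to 1.42, spans 1. Leaving out 1 array at a time gave 0.15 to 0.21. No member had a ratio below 0 on every array, as 18.9% of the tested miRNAs had, and 3 of 5 members, miR-16, miR-16c and miR-15a, had a mean ratio above 0, against 37% of the tested miRNAs. The normalised channels of 0 of 5 members were without overlap between strains, against 9.45%.

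miR-16c, which differs from miR-16 at 2 bases, averaged 6261 ± 423 in dwarf pools and 5804 ± 744 in normal pools (SD, n = 3 each). Its log2 ratio was 0.24, 0.14 and -0.03 on arrays 1, 2 and 3, so the direction was shared by arrays 1 and 2 only. The mean was 0.12 (SE 0.13, limma adjusted p 0.825), with a 95% interval of the fold of 0.840 to 1.40. Without array 1 the mean was 0.05, and without array 3 it was 0.19.

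The 3 miR-15 members had ratios on both sides of 0. miR-15c averaged 1268 ± 151 in dwarf pools and 1296 ± 226 in normal pools (SD, n = 3 each), with log2 ratios of -0.10, 0.21 and -0.19 on arrays 1, 2 and 3. The mean was -0.02 (SE 0.14, limma adjusted p 0.973), and the fold lay between 0.740 and 1.31 in the 95% interval. miR-15b averaged 991 ± 275 in dwarf pools and 992 ± 51.4 in normal pools (SD, n = 3 each), with log2 ratios of -0.18, 0.34 and -0.27. The mean was -0.03 (SE 0.18, limma adjusted p 0.973), and the 95% interval of the fold was 0.686 to 1.39. Each of these means turned above 0 when array 1 or array 3 was left out, to 0.01 and 0.06 for miR-15c and to 0.04 and 0.08 for miR-15b.

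miR-15a was the least certain member. It averaged 275 ± 127 in dwarf pools and 264 ± 131 in normal pools (SD, n = 3 each), where the offset makes up part of both values. The log2 ratios were -0.06, 0.66 and -0.42 on arrays 1, 2 and 3, and the mean was 0.06 (SE 0.26, limma adjusted p 0.973). Its interval of the fold, 0.627 to 1.73, was the widest of the family. Without array 2, where its normal pool read 42.0, the mean was -0.24.

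**Figure D2:**
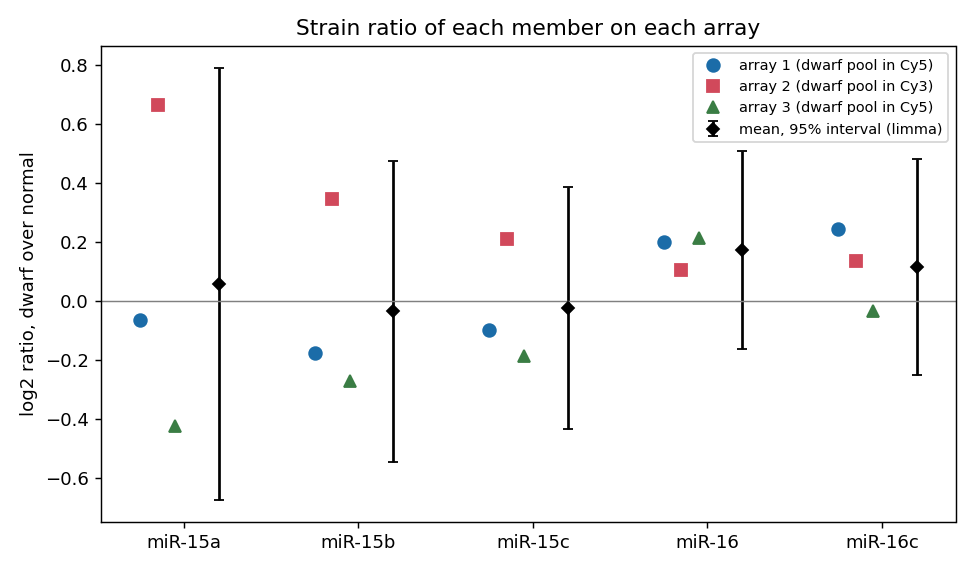
Log2 ratio of dwarf over normal for each member, with a coloured symbol for each array and a black diamond for the mean with its 95% interval from limma (n = 3 arrays). All 5 intervals include 0, the symbols of miR-16 lie between 0.11 and 0.21, and for the 3 miR-15 members the array with the dwarf pool in Cy3 lies above 0 and the others below.

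All 5 members had a 95% interval within 1 of 0 on the log2 scale, which was so for 71.7% of the tested miRNAs. The intervals are not limits of detection, and a p over the threshold does not show that the strains were alike. In 3 of the members, miR-15c, miR-16 and miR-16c, the ratio stayed within 0.3 of 0 on each array, as in 29.9% of the tested miRNAs.

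For all 3 miR-15 members the sign of the ratio went with the dye of the dwarf pool. The ratio was below 0 on arrays 1 and 3, where dwarf pools carried Cy5, and above 0 on array 2, where they carried Cy3, a pattern found in 20.5% of the tested miRNAs. Turned to Cy5 over Cy3, the mean log2 ratio was -0.38 (SE 0.17) for miR-15a, -0.26 (SE 0.11) for miR-15b and -0.16 (SE 0.11) for miR-15c. In the other branch, miR-16 had 0.10 (SE 0.13) and miR-16c had 0.03 (SE 0.14). In the limma fit of this dye ratio the adjusted p was 0.611 for miR-15a and miR-15b, 0.785 for miR-15c, 0.929 for miR-16 and 0.982 for miR-16c, so 0 of 5 passed, with 0% of all tested miRNAs. At an unadjusted p under 0.05 it was also 0 of 5, against 9.45% of all tested miRNAs. Because only array 2 had exchanged dyes, the mean strain ratio and the mean dye ratio each hold part of the other. With a dye coefficient in the fit, the strain ratio was 0.21 for miR-15a, 0.061 for miR-15b and 0.035 for miR-15c. It was 0.16 for miR-16 and 0.12 for miR-16c, and that fit rests on array 2 alone for the exchanged dyes.

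The pattern of signs in the miR-15 members depended on the normalisation. With the curve fitted on detected miRNAs only, miR-15b was at 0.14, 0.22 and 0.03 on arrays 1, 2 and 3 and miR-15c at 0.13, 0.08 and 0.10, all above 0. In the log2 ratios that the authors deposited, miR-15b was at -0.02, -0.04 and 0.03 and miR-15c at 0.13, -0.16 and 0.07. miR-15a kept below 0 on arrays 1 and 3 and above 0 on array 2 in both of these settings, with -0.18, 0.60 and -0.23 in the authors' values. miR-16 was above 0 on 3 of 3 arrays in both. With plain subtraction miR-15c was at 0.02, -0.15 and -0.08, so its signs on arrays 1 and 2 were turned. With median centring in place of loess, the miR-16 branch had the signs of the miR-15 members, with -0.19, 0.51 and -0.23 for miR-16 and -0.15, 0.54 and -0.50 for miR-16c.

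The branches, with the dim miR-15a left out, were also set against each other within an array, which needs no comparison of probe strength. The mean log2 ratio of miR-16 and miR-16c was 0.22, 0.12 and 0.09 on arrays 1, 2 and 3, and that of miR-15b and miR-15c was -0.14, 0.28 and -0.23. The difference, the miR-16 and miR-16c mean minus the miR-15b and miR-15c mean, was 0.36, -0.16 and 0.32, with a mean of 0.17 ± 0.29 (SD, n = 3). Here the difference was smaller than the spread between arrays, but this depended on the setting. With plain subtraction of the empty-spot median it was 0.24, 0.13 and 0.16, with a mean of 0.18 ± 0.06 (SD, n = 3) and 1 sign on all arrays. In that setting the omitted miR-15a was at -0.30, 1.02 and -0.33, and the difference with miR-15a included was not computed. Median centring without loess gave 0.49, -0.43 and 0.68, loess on detected miRNAs 0.12, 0.12 and -0.12, and the authors' ratios 0.17, 0.18 and -0.10. Over the 6 settings the mean ran from 0.04 to 0.25, and no test was made of this difference. Among the 10 pairs of members, the mean difference in strain ratio ran from -0.21 for miR-15b minus miR-16 to 0.09 for miR-15a minus miR-15b, and each of these was smaller than its SD over the arrays, 0.39 and 0.24.

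The near-identical members were compared pool by pool, since their probes differ by 1 or 2 bases. miR-15c over miR-15b, as a log2 ratio of normalised signals, was 0.79, -0.07 and 0.43 in dwarf pools by array, and 0.71, 0.06 and 0.34 in normal pools. The ratio went with the array and was close between the dwarf and the normal pool that shared it, although these came from separate embryos. On array 2, where the pools had exchanged dyes, the probes were near equal in both pools. miR-15b spots and miR-15c spots stood in adjacent rows and the same columns of the array. Whether the pools or the hybridisations differed between arrays cannot be told apart, since each array held its own pools.

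miR-16 over miR-16c behaved otherwise. By array, it was -0.02, -0.03 and 0.28 in dwarf pools, and 0.03, -0.01 and 0.04 in normal pools. In 5 of the 6 pools the probes read within 0.04 of each other on the log2 scale, and only the dwarf pool of array 3 stood apart, with a spot range of 7266 to 8552 for miR-16 against 5786 to 7509 for miR-16c. The ratio of miR-16c on that array, -0.03 against 0.21 for miR-16, is where these members parted.

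**Figure D3:**
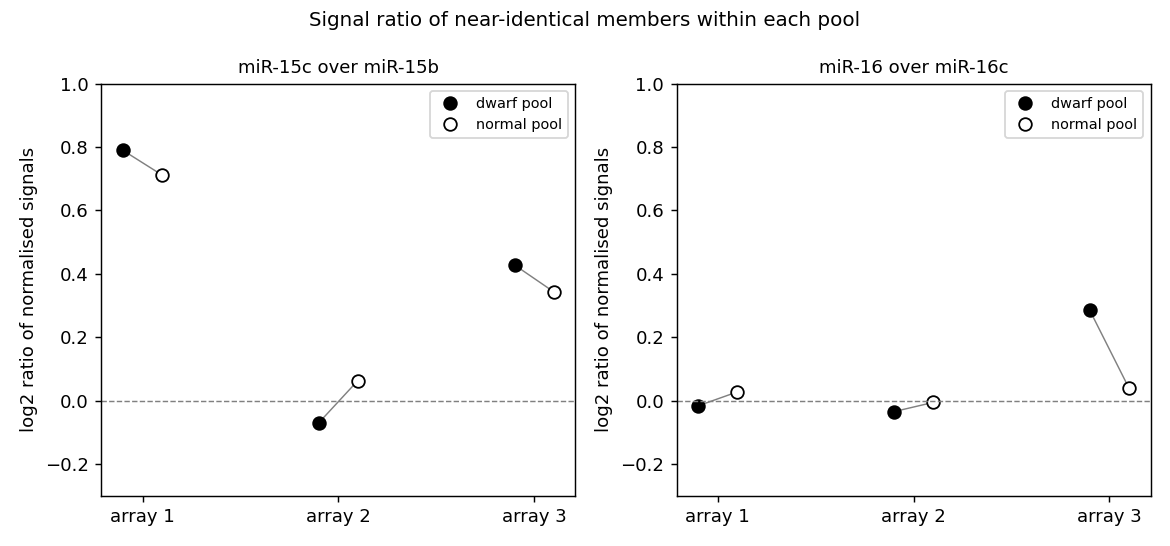
Log2 ratio of normalised signals within each pool, miR-15c over miR-15b on the left and miR-16 over miR-16c on the right, with the dwarf pool filled and the normal pool open on each array. The miR-15c over miR-15b ratio lies near 0 in both pools of array 2 and at 0.71 and above in both pools of array 1, while miR-16 over miR-16c leaves 0 only in the dwarf pool of array 3.

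Each member had 6 spots per array, in 2 blocks of rows. Spots of 1 array are not replicates of a condition, but they show how well a single hybridisation was read. The coefficient of variation of the 6 spots ran from 6.01% to 17.0% for miR-16 and from 5.80% to 18.4% for miR-16c. It ran from 5.20% to 19.0% for miR-15b, from 6.70% to 16.8% for miR-15c and from 7.90% to 37.2% for miR-15a, the highest value belonging to the normal pool of array 1. As log2 ratios of dwarf over normal, the SD between spots of a member was 0.06 to 0.18, with a median of 0.13 over all tested miRNAs.

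The spread between arrays was compared with that of the other miRNAs. The SD of the ratio over the 3 arrays was 0.06 for miR-16, the 6th lowest of the 127 tested miRNAs. An SD under 0.1 was found in 1 of 5 members and in 11.8% of the tested miRNAs. It was 0.14 for miR-16c, 0.21 for miR-15c, 0.33 for miR-15b and 0.55 for miR-15a, with a median of 0.33 over all. The dimmer members thus had the larger spread here. The order was the same with median centring, from 0.42 for miR-16 to 1.38 for miR-15a, but it did not hold in every setting. With loess on detected miRNAs the SD was 0.03 for miR-15c and 0.09 for miR-15b, against 0.12 for miR-16 and 0.25 for miR-16c. In the authors' ratios it was lowest for miR-15b, at 0.03, against 0.07 for miR-16. miR-15a had the largest SD of the family in all 6 settings compared, from 0.43 to 1.38. With 3 arrays an SD is itself poorly known, and the limma fit draws the small SD of miR-16 toward the rest, which gives the SE of 0.12. Without this moderation the SE was 0.03 and the unadjusted p 0.0359 in the fit across all tested miRNAs, with an adjusted p of 0.591, and its adjusted p lay between 0.591 and 0.997 over the alternatives tried.

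**Figure D4:**
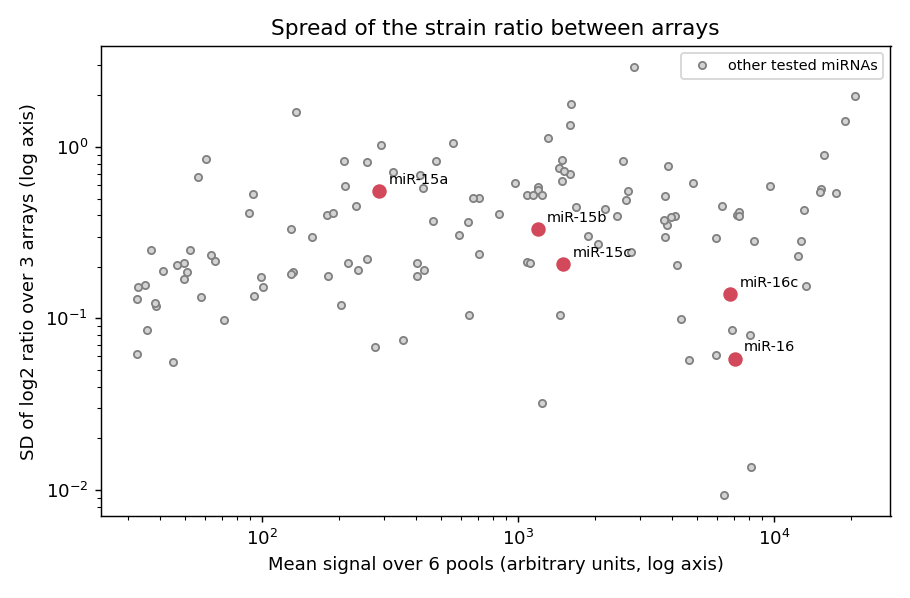
SD of the log2 ratio of dwarf over normal between the 3 arrays against the mean signal over the 6 pools, both on log axes, with the 5 members in red and the other tested miRNAs in grey. The members run from miR-15a at an SD of 0.55 to miR-16 at 0.06, and other miRNAs lie both above and below them.

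Relatives on the array were few. The strand from the other arm of the miR-15c hairpin, miR-15c*, was not detected in any of the 6 pools. No probe on the array carried the name of the relatives miR-195, miR-457, miR-497, miR-424, miR-322 or miR-503. The same held for the other arms of the remaining members. miR-103 and miR-107, which sit within pantothenate kinase genes in vertebrates and carry the letters AGCAGCA shifted by 1 base, were shown for that shared stretch.
miR-103: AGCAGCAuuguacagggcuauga
miR-107: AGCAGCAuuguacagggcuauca
The mean log2 ratio was -0.17 (SE 0.16) for miR-103 and -0.18 (SE 0.17) for miR-107, each with a limma adjusted p of 0.824. miR-103 was at -0.24, 0.14 and -0.39 on arrays 1, 2 and 3, the order of signs that the miR-15 members had with loess on all miRNAs. That order was found in 20.5% of the tested miRNAs.

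The miRNAs most like each member were named by Pearson r over the 6 normalised channel values, which share arrays and dyes, among 122 tested miRNAs outside the family. For miR-15b these were miR-103 (r = 0.946) and miR-107 (r = 0.942), for miR-15c miR-1587 (r = 0.964) and miR-1584 (r = 0.949), and for miR-15a miR-223 (r = 0.895) and miR-30a-5p (r = 0.892). For miR-16 they were miR-126 (r = 0.843) and miR-454 (r = 0.801), and for miR-16c miR-454 (r = 0.968) and let-7i (r = 0.951). Within the family, the 10 pairs ran from -0.735 for miR-15c with miR-16 to 0.817 for miR-15a with miR-16c, a pair across the branches. miR-16 with miR-16c had 0.795 and miR-15a with miR-16 had 0.746. In the miR-15 branch, r was 0.600 for miR-15a with miR-15b, -0.212 for miR-15b with miR-15c and -0.614 for miR-15a with miR-15c. The near-identical miR-15b and miR-15c thus did not move together over the 6 channels. Within arrays their strain ratios were close. The SD over arrays of the difference between these ratios was 0.12, the lowest of the 10 pairs.

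The study named let-7b and miR-181b for GHR beside miR-15c, miR-16 and miR-16c. The log2 ratios of let-7b and miR-181b were -0.24 (SE 0.19, limma adjusted p 0.754) and -0.49 (SE 0.20, limma adjusted p 0.413). Both means lay below 0, as did that of miR-15c (-0.02). The means of miR-16 (0.17) and miR-16c (0.12) lay above 0, and none of these miRNAs passed an adjusted p of 0.05. The study itself reported miR-181b as significantly lower in dwarf than in normal embryos of this age. It stated no adjustment across miRNAs for that p-value, so its call and the adjusted p here are not on 1 scale. The mean ratio of miR-181b had the same direction here, with an unadjusted limma p of 0.0777.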

How the data were processed

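Per the study's methods, arrays were designed by LC Sciences on miRBase 15, scanned, and read as the mean density of each spot. The authors deposited these linear spot intensities with no background subtracted. A table of log2 ratios was deposited too, made by the authors with background subtraction and LOWESS. Set against the scanner values, these ran as dwarf over normal on all 3 arrays (Pearson r 0.965, 0.860 and 0.912 over 127 miRNAs), although the labels write normal over dwarf, and how they were centred is not given in the sources used here.

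Commas inside numbers were removed. Intensities were corrected by normexp with an offset of 50, normalised by loess within each array with weight 0 for control spots, averaged over 6 spots, and turned on array 2. Channel values were taken after Aquantile. The 127 miRNAs with a mean signal over 32 were fitted with limma 3.58.1 in R 4.3.3 and adjusted by Benjamini-Hochberg, and the fit was tested on simulated data. Labels do not say whether pools shared hatch or day. The pools of 1 array deviated together, with r of 0.613, 0.234 and 0.307, and the ratio within an array keeps this pairing. Named miRNAs were the members, probes with their seed or its letters, listed relatives, the study's GHR miRNAs and the 2 most like each member. Members and lists were chosen with earlier results of these data known.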

Additional observations from a re-analysis of the deposited data

How the results depend on the processing

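The count of members called was 0 in all 16 alternatives, at an adjusted p of 0.05 or, for the methods' t-test, an unadjusted p of 0.01. The alternatives were plain subtraction, another offset, other normalisations, the median of spots, other filters, a dye coefficient, no moderation, separate channels, the authors' ratios, the methods' t-test and leaving out each array. The t-test was run here on normalised channels of dwarf and normal pools without pairing within an array. The study's methods name a t-test but not whether it was paired. At an unadjusted p under 0.05, 1 member, miR-16, was counted with no filter, where 31 of all 542 miRNAs were. It was also counted with no moderation, where 6 of the 127 tested miRNAs were. Over all tested miRNAs the count of 0 (14 unadjusted) became 2 with median centring, 3 with the dye coefficient and 1 with the methods' t-test at 0.01 (0 after Benjamini-Hochberg adjustment), with no member among them, and was 0 without each array. Separate channels with no replicate block gave 0. The dye ratio called 5 members without normalisation, and the count over all tested miRNAs was not taken there. Before normalisation, 88.2% of the tested miRNAs were brighter in Cy3 on all arrays. That share counts signs and not calls, so the 5 calls are not read as a result about the members.

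Signs of small ratios changed. miR-16 fell to -0.21 without normalisation, and miR-16c to -0.037 with median centring and -0.28 without normalisation. miR-15a was at -0.18 with median centring, -0.42 without normalisation and -0.24 without array 2. With an offset of 16, loess on detected miRNAs and the dye coefficient, miR-15b was at 0.0040, 0.13 and 0.061, and miR-15c at 0.0089, 0.11 and 0.035. miR-15c was at 0.016 in the authors' ratios. Leaving out each array gave -0.24 to 0.30 for miR-15a, -0.22 to 0.084 for miR-15b and -0.14 to 0.056 for miR-15c. The median of all tested miRNAs moved to -0.26 with median centring and -0.50 without normalisation. The cause was not tested. miR-15a was the member nearest the detection limit.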
